A study of Mus musculus with 3 samples.

Results

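Accessible chromatin was described at 6 gene loci of the excitatory synapse in the dentate gyrus, a hippocampal region whose main cells are the granule neurons. The members were fixed windows of the mouse build mm9 around 6 genes. They were chosen by gene and not by a rule on measured values, though earlier results of these data were known. The windows lay on chromosome 11 from 56800000 to 57170000 for Gria1, chromosome 3 from 80460000 to 80640000 for Gria2, chromosome 2 from 25120000 to 25200000 for Grin1, chromosome 16 from 9540000 to 10030000 for Grin2a, chromosome 6 from 135640000 to 136160000 for Grin2b and chromosome 18 from 61060000 to 61175000 for Camk2a. They held 96 of the 84529 accessible regions of the series. The data were peak lists from ATAC-seq, in which the transposase Tn5 inserts adapters into open DNA and a peak marks a stretch with many insertions. The 3 libraries came from 3 C57BL/6 mice, 8 weeks old, all labelled E24, a code that the labels do not spell out. The series concerns neuronal activation, and an unstimulated group was not analysed here.

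AMPA and NMDA receptors are ion channels opened by glutamate, and both are built from several subunits. AMPA receptors carry the fast excitatory current, while NMDA receptors pass calcium when the cell is depolarised as glutamate binds. That calcium activates the calcium/calmodulin-dependent kinase CaMKII, which acts on AMPA receptors and is needed for long-term potentiation at many hippocampal synapses. Granule neurons receive this input from the entorhinal cortex through the perforant path. Each gene is transcribed from a promoter and may be served by enhancers inside or around it, and both kinds of element can appear as ATAC-seq peaks.

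The promoter letters of Grin1 and Gria2 are shown because these were the members matched, 2 of 6, in the RefSeq promoter table of the build GRCm38.p6. Gria1, Grin2a, Grin2b and Camk2a had no match. Each run holds the 250 bases before the annotated start, 5′ to 3′ on the strand of the gene, and capitals mark the CpG dinucleotides.
Grin1: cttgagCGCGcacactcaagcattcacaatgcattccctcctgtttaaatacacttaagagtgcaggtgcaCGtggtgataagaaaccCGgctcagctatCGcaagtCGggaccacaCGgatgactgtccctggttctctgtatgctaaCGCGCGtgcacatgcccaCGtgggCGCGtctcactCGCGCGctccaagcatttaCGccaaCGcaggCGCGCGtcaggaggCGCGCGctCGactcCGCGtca
Gria2: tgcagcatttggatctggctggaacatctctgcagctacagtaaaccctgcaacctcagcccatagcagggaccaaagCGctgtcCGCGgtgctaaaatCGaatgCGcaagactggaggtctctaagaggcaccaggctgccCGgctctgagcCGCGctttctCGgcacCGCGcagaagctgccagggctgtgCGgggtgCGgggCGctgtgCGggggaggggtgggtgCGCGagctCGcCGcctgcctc
The Grin1 run held 27 CpG dinucleotides and the Gria2 run 19, against a median of 6 over the 32851 promoters of the table. Their GC contents were 58.8% and 64.8%, against a median of 52.4%. Neither run held the letters of 4 motifs on either strand. TGACGTCA, a cyclic AMP response element, was in 1.55% of all promoters, TGANTCA, an AP-1 site, in 6.75%, GGGCGG, a GC box, in 32.7%, and GCGNGGGCG, an Egr site, in 4.70%. GCGNGGGCG can overlap GGGCGG. Over 17 of 28 glutamate receptor and CaMKII genes matched in the table, which gave 20 promoters, TGACGTCA was in 0, TGANTCA in 2, GGGCGG in 11 and GCGNGGGCG in 2. These sequences are on another build than the peaks, so which peak covers which promoter was not determined.

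Without read counts in the deposited lists, the depth of each library is unknown. Replicates 1, 2 and 3 had 62912, 68699 and 48769 peaks. Replicate 3 stood apart, with a median peak width of 353 bp against 504 bp in both others. The authors' score of a peak has no unit, and it was read only as a percentile, the percent of peaks of the same list with a lower score. A list as a whole has a median percentile of about 50. No peak was assigned to a gene, exon or promoter, since no mm9 annotation was used, and for the same reason the tissue label was not checked against marker genes. The windows reach past the genes. By RefSeq order, the nearest protein-coding neighbours are Gask1b and Glrb for Gria2, Tmem210 and Man1b1 for Grin1, and Arsi and Slc6a7 for Camk2a, and Lrrc26 overlaps Grin1. A peak in a window may therefore belong to another gene. In bulk tissue, strong accessibility in few cells and weak accessibility in many cannot be told apart.

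The 6 windows together held 59 peaks in replicate 1, 74 in replicate 2 and 49 in replicate 3. Their peak density was 1.34, 1.53 and 1.43 times the density over all autosomes of the same list, a mean of 1.44 ± 0.0981 (SD, n = 3). It lay above 1 in 3 of 3 animals, with p = 0.25 in an exact two-sided sign-flip permutation test, the smallest p that 3 animals can give. Without replicate 3 the mean was 1.44. The member peaks were mostly weak. The median percentile of the member peaks was 38.2, 37.9 and 37.4 in the 3 lists. Of these peaks, 2 of 59, 3 of 74 and 1 of 49 were in the highest-scoring 10% of their list. In the highest-scoring 50% of each list the relative density was 1.09 ± 0.212 (SD, n = 3).

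**Figure D1:**
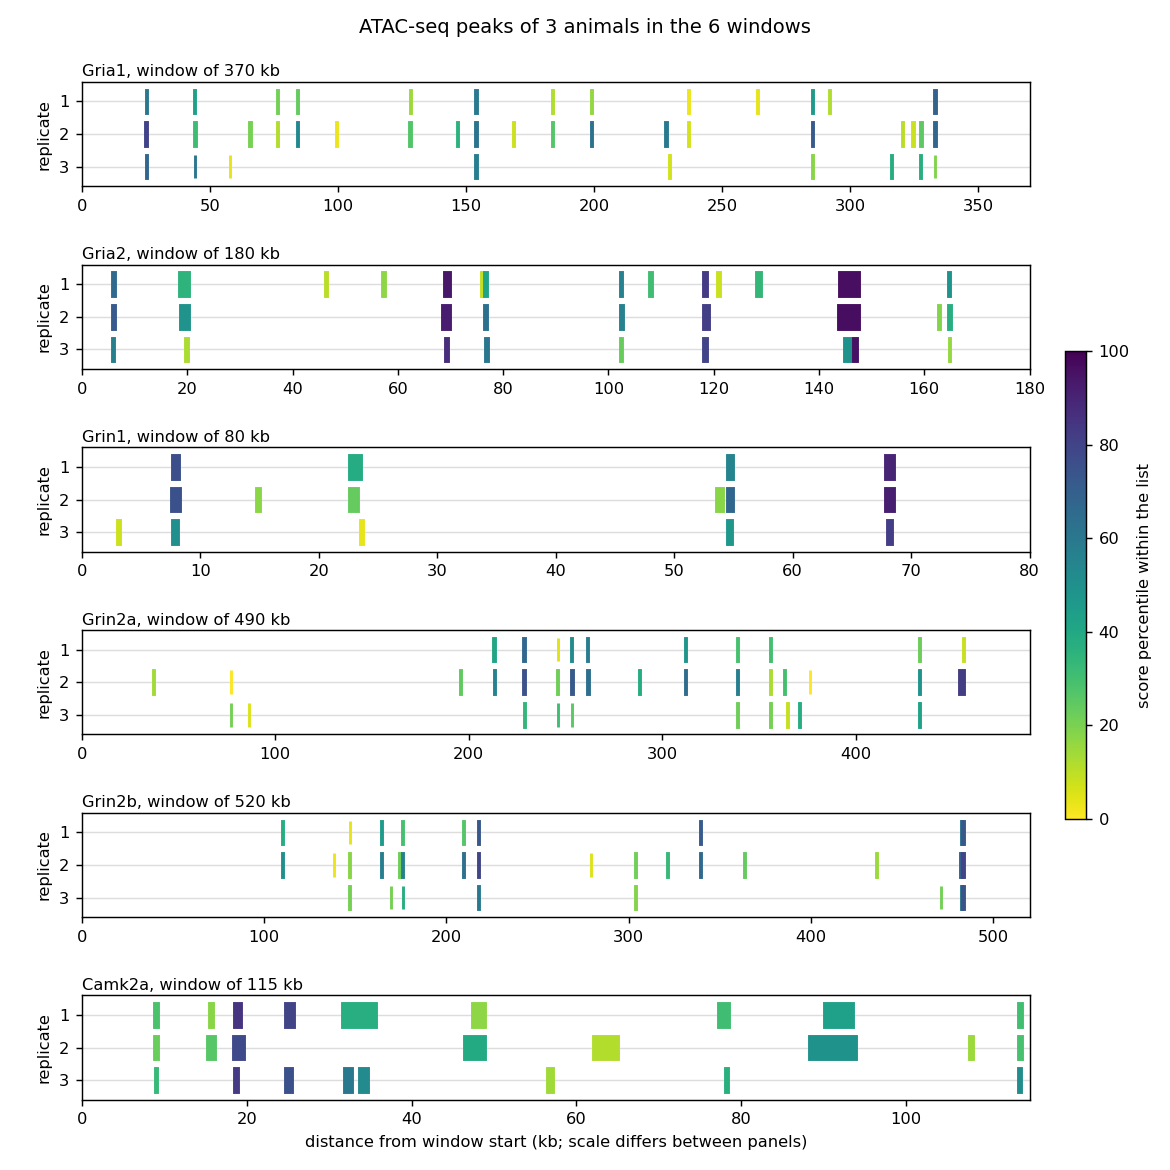
Peaks of the 3 animals in each window, by distance from the window start in kb, with 1 track per replicate and colour giving the score percentile within the list. Bars have a thin edge of fixed size so that narrow peaks stay visible, the scale differs between panels, and a reader should see the wide pale to mid-tone bars of Camk2a and the dark bars of Gria2.

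The windows ranged widely in density. Camk2a, Grin1 and Gria2, the densest over all peaks, were also the shortest, at 115, 80 and 180 kb. Gria1, Grin2a and Grin2b were 370, 490 and 520 kb long. Gene and window length therefore cannot be told apart in these densities. Camk2a, the gene of the alpha subunit of CaMKII, had the highest mean over all peaks, at 3.12, 2.53 and 3.57 times the autosomal density in replicates 1, 2 and 3, a mean of 3.07 ± 0.521 (SD, n = 3). Chromosome 18 itself stood at 1.33 ± 0.0521, and against that chromosome alone the Camk2a window stood at 2.30 ± 0.319, below the 2.72 ± 0.654 of Grin1 against its own chromosome. In the highest-scoring 50% of each list, Camk2a had 1.38, 0.632 and 4.47, a mean of 2.16 ± 2.03 (SD, n = 3) that rests on replicate 3, since the mean without it was 1.01. Grin1, which encodes the subunit that every NMDA receptor needs, had 1.99, 2.73 and 3.21, a mean of 2.64 ± 0.614. Gria2, whose edited subunit keeps calcium out of AMPA receptors, had 3.10, 1.82 and 2.57, a mean of 2.50 ± 0.642. In the highest-scoring 50%, Grin1 had 2.76 ± 0.207 and Gria2 had 2.50 ± 0.330. These 3 windows overlapped in their values over animals over all peaks. Within animals, Camk2a stood above Gria2 in 3 of 3, narrowly in replicate 1, at 3.12 against 3.10. Grin1 changed place with both of them between animals, so the order of the 3 is not fixed by these data. Gria1, the gene of an AMPA receptor subunit that is inserted at synapses during potentiation, followed with 1.40, 1.87 and 1.25, a mean of 1.51 ± 0.323. Its replicate 2 value lay above the lowest Gria2 value, so these neighbours in the order overlapped too.

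The windows of the NMDA receptor subunits Grin2a and Grin2b were near the density of the autosomes over all peaks. Grin2a had 0.813, 1.19 and 1.05, a mean of 1.02 ± 0.190, and Grin2b had 0.689, 1.12 and 0.790, a mean of 0.866 ± 0.225 (SD, n = 3). Among the highest-scoring 50% of peaks, Grin2a had 0.487, 1.04 and 0, a mean of 0.508 ± 0.519, and Grin2b had a mean of 0.774 ± 0.298, so their order turned. Both subunits join Grin1 in the receptor, and Grin2b gives way in part to Grin2a as the brain matures. Of 15 pairs of windows, 12 had the same order in 3 of 3 animals. The Grin1 window was 3.06 times as dense as the Grin2b window, with a log2 difference of 1.61 ± 0.375, and 2.58 times as dense as Grin2a, at 1.37 ± 0.218 (SD, n = 3). Each of the 12 pairs had p = 0.25 in the exact sign-flip permutation test and 0.3125 adjusted over the 15 pairs, so no pair could pass 0.05 with 3 animals.

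**Figure D2:**
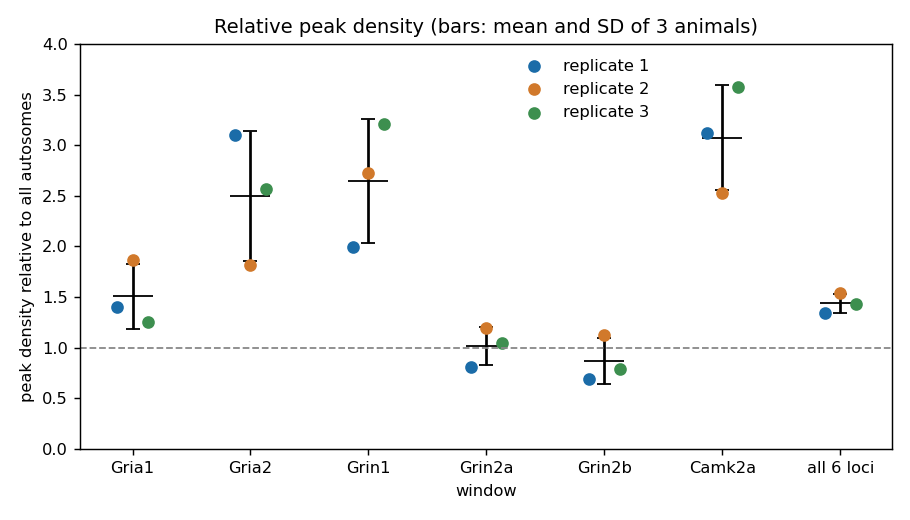
Peak density of each window relative to all autosomes of the same list, with 1 point per animal and bars for the mean and SD of 3 animals. The dashed line marks the autosomal density. Camk2a, Grin1, Gria2 and Gria1 lie above it in every animal, while Grin2a and Grin2b lie on both sides of it.

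Windows of the same length laid end to end over the autosomes give the spread of such counts. For Camk2a, 2.81%, 7.19% and 1.71% of such stretches had as many peaks or more in replicates 1, 2 and 3. Its window was thus among the fuller ones in each animal. For Gria2 these shares were 1.47%, 17.3% and 5.28%, and for Grin1 they were 19.9%, 7.48% and 5.30%. Which animal stood highest differed between these genes. For Gria1 they were 28.2%, 11.3% and 36.1%. Grin2a, at 60.8%, 38.3% and 46.6%, and Grin2b, at 69.1%, 42.6% and 62.9%, lay in the middle of the range.

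Joining peaks that overlapped by 1 bp gave 96 regions in the 6 windows, of which 30 (31.3%) were held by all 3 animals, 24 by 2 of them and 42 (43.8%) by 1. Over the whole series 43.6% of regions were held by all 3 animals and 33.4% by 1. Gria2 had 8 of 15 regions held by all 3 and Grin1 had 4 of 7. Gria1 had 5 of 24, Grin2a 6 of 19, Grin2b 4 of 19 and Camk2a 3 of 12. Of the 42 regions of 1 animal, 23 came from replicate 2, 9 from replicate 1 and 10 from replicate 3. Replicate 2 thus gave 54.8% of them, against 48.8% of the single-animal regions of the series. With replicate 3 left out, replicates 1 and 2 shared 47 of 86 member regions (54.7%), against 65.1% over the series.

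Sharing was then read at stronger and weaker regions apart. Among regions whose highest percentile was 50 or more, 23 of 36 member regions were held by all 3 animals (63.9%), against 80.5% of all such regions. Gria2 and Grin1 had no stronger region that an animal lacked. By window these counts were 6 of 6 for Gria2, 3 of 3 for Grin1, 5 of 8 for Gria1, 4 of 8 for Grin2b, 3 of 7 for Grin2a and 2 of 4 for Camk2a. Among weaker regions, 7 of 60 were held by all 3 (11.7%), close to the 10.2% over the series. Neighbouring regions are not independent, and no test was made of these shares.

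Gria1 had many weak peaks spread over 370 kb. Replicates 1, 2 and 3 had 13, 19 and 9 peaks, 186 to 894 bp wide, and the median percentile was 21.4, 27.2 and 37.4. No Gria1 peak reached the highest-scoring 10% of its list. The region with the highest mean percentile lay on chromosome 11 from 56824820 to 56825518, at 60.1, 80.4 and 67.5 in replicates 1, 2 and 3. The next, from 56953591 to 56954245, varied less between animals, at 59.4, 61.7 and 57.5. The third, from 57132603 to 57133377, was at 68.6 and 67.0 in replicates 1 and 2 and at 18.9 in replicate 3. Between 56954246 and 57084881, a stretch of 131 kb, no region was held by all 3 animals. The longest stretch without a peak in any animal ran from 57133378 to the window end at 57170000, over 36.6 kb. The widest region, from 57027676 to 57028569 (894 bp), was in replicate 2 alone, at a percentile of 59.7. In the highest-scoring 50% of each list, the relative density of Gria1 was 0.951 ± 0.379 (SD, n = 3), below the autosomal density.

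Gria2 held the strongest regions of the 6 windows, and the animals differed little at them. Its leading region, on chromosome 3 from 80603667 to 80607593, was at a percentile of 96.1, 96.7 and 95.7 in replicates 1, 2 and 3, a mean of 96.2 ± 0.519 (SD, n = 3). It was also the widest region of the window, at 3927 bp. Replicates 1 and 2 each had 1 peak there, of 3724 and 3865 bp. Replicate 3 had 2 peaks there, of which the wider, of 1283 bp, was only at a percentile of 49.0. The second region, from 80528414 to 80529900, was at 93.8, 92.3 and 87.1, and the third, from 80577980 to 80579031, at 82.8, 81.8 and 79.7.

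The weak Gria2 regions differed more between animals. Of the 7 regions of 1 animal, 6 came from replicate 1 and 1 from replicate 2. Over the series, replicate 1 gave 31.9% of the regions of 1 animal. The highest of its 6 here was from 80587980 to 80588888, at a percentile of 33.7. Replicate 3, the shortest list, added 0. Replicate 1 thus had 14 peaks in the window against 9 in each of the others. The shared region from 80478515 to 80480358 was wide for its rank. Its peaks measured 1746, 1767 and 715 bp at percentiles of 35.3, 48.6 and 12.5. The longest stretch without a peak in any animal ran from 80480359 to 80506132, over 25.8 kb.

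The Grin1 window of 80 kb held 4, 6 and 5 peaks in replicates 1, 2 and 3, each under 1 kb. Its leading region, on chromosome 2 from 25187800 to 25188560, was at a percentile of 89.9, 91.5 and 81.7, a mean of 87.7 ± 5.23 (SD, n = 3). The next was from 25127521 to 25128239, at 75.9, 75.4 and 50.7, and the third from 25174430 to 25174979, at 55.0, 67.0 and 47.0. Replicate 3 was lowest at all 3 of these regions. Between the last 2 lay a stretch of 29.8 kb, from 25143747 to 25173535, without a peak in any animal, 37.2% of the window. The widest region, from 25142540 to 25143746 (1207 bp), was weak, at 38.6, 23.5 and 3.77. Its peaks in replicates 2 and 3 did not overlap each other and were joined through that of replicate 1. The highest region not held by all 3 animals, from 25173536 to 25174133, was in replicate 2 alone, at a percentile of 17.6. Since Lrrc26 overlaps Grin1, the counts describe the neighbourhood of Grin1 and not Grin1 alone.

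Grin2a had 10, 16 and 10 peaks in replicates 1, 2 and 3 over 490 kb. Its first 195 kb held 3 regions, and a stretch of 109 kb there, from 9626462 to 9735412 on chromosome 16, held no peak in any animal. Its best shared region, from 9768235 to 9769262, was at a percentile of 66.7, 74.9 and 34.4, a mean of 58.7 ± 21.4 (SD, n = 3), the lowest mean of the 6 leading regions. The next 2 were from 9793009 to 9793688, at 51.7, 72.4 and 25.5, and from 9972706 to 9973414, at 22.4, 48.1 and 42.5. All peaks of replicate 3 in the window were at 42.5 or lower. The region from 9801367 to 9802185, at 57.6 in replicate 1 and 63.5 in replicate 2, had no peak in replicate 3. Without replicate 3, 10 Grin2a regions were shared by both remaining animals, against 6 held by all 3.

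The widest Grin2a region, from 9993416 to 9996124, differed most between animals. Replicate 2 had a peak of 2675 bp there with a score of 376.6 and a percentile of 82.1. Replicate 1 had a peak of 764 bp with a score of 56.4 and a percentile of 8.33, and replicate 3 had none. Of the 14700 regions in the series held by replicates 1 and 2 alone, this was the 1 with the widest gap in percentile, at 73.7 points. Whether depth or handling of the libraries moved with this gap was not tested.

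Grin2b had the lowest mean density over all peaks, with 9, 16 and 8 peaks in replicates 1, 2 and 3 over 520 kb. Its first 109.6 kb, from 135640000 to 135749553 on chromosome 6, held no peak in any animal. The leading regions stood side by side near the other end. The one from 136123055 to 136123970 was at a percentile of 72.9, 79.8 and 74.6, a mean of 75.8 ± 3.57 (SD, n = 3), and the one from 136122031 to 136122768 was at 62.3, 69.3 and 61.0. The second by mean percentile, from 135857434 to 135858104, was at 72.8, 79.6 and 59.4. Between it and the pair lay 264 kb in which no region was held by all 3 animals. Within that stretch, the region from 135979065 to 135979623 was at 71.8 in replicate 1 and 66.3 in replicate 2 and had no peak in replicate 3. Of the 9 Grin2b regions of 1 animal, 6 came from replicate 2, which gave 48.8% of such regions over the series.

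Camk2a had 9, 8 and 8 peaks in replicates 1, 2 and 3 over 115 kb, the most even count of the 6 windows. Its 3 regions held by all animals lay in the outer 20 kb of the window. They were on chromosome 18 from 61078313 to 61079611, at a percentile of 85.1, 77.4 and 82.5, from 61173534 to 61174130, at 30.4, 29.0 and 51.2, and from 61068731 to 61069266, at 28.7, 22.9 and 32.5. Over the 93.9 kb between the first and the second of these, each region was missing in at least 1 animal. The longest stretch without a peak in any animal ran from 61153924 to 61167701, over 13.8 kb. With the window narrowed by 20 kb on both sides, 0 regions were held by all 3 animals, and the relative density was 2.51 ± 0.991 (SD, n = 3).

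In that inner part, replicate 2 lacked regions that both other animals had. The region from 61084622 to 61085736 was at a percentile of 80.0 in replicate 1, with a peak of 1088 bp, and at 75.3 in replicate 3, with a peak of 856 bp. Replicate 2 had no peak there, although its list was the longest. Of the 1797 regions of the series held by replicates 1 and 3 alone, 4 had a mean percentile as high, this one included. Replicate 2 also lacked the next region, from 61091615 to 61095675, at 37.5 in replicate 1 and 59.8 in replicate 3, and the one from 61137158 to 61138498, at 30.8 and 36.4. All 3 member regions held by replicates 1 and 3 alone were thus in the Camk2a window. Such regions made up 3.1% of the member regions, near the 2.13% of all regions of the series.

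Camk2a peaks were wide for their score. Of its peaks, 5 of 9 in replicate 1, 4 of 8 in replicate 2 and 2 of 8 in replicate 3 were 1 kb or wider, against 10.3%, 11.5% and 4.61% of all peaks of these lists. Peaks this wide had a median percentile of 92.8, 92.2 and 96.1 over the lists. Those of Camk2a had a median of 37.5, 44.4 and 56.2, a mean of 46.0 ± 9.48 (SD, n = 3). Among all peaks of 1 kb or wider, 2.06%, 3.25% and 1.82% were at or below these medians. The 2 wide peaks of replicate 3 lay in 1 region, at 59.8 and 52.6. The 1 kb limit was chosen with the values known.

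The widest Camk2a region ran from 61148236 to 61153923. Replicate 2 had a peak of 5688 bp there with a score of 131.3 and a percentile of 49.4, and replicate 1 a peak of 3603 bp at 43.7, while replicate 3 had none. Only 9 peaks in the list of replicate 2 were as wide or wider, this one included. The region from 61091615 to 61095675 was 1 peak of 4061 bp in replicate 1 and 2 peaks of 1016 and 1169 bp in replicate 3. A peak of 3130 bp from 61121974 to 61125103 was in replicate 2 alone, at a percentile of 11.4. Peaks covered 12.2%, 13.2% and 4.58% of the Camk2a window in replicates 1, 2 and 3, against 1.53%, 1.71% and 0.846% of the autosomes. For Gria2 the covered shares were 7.06%, 6.00% and 3.21%.

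**Figure D3:**
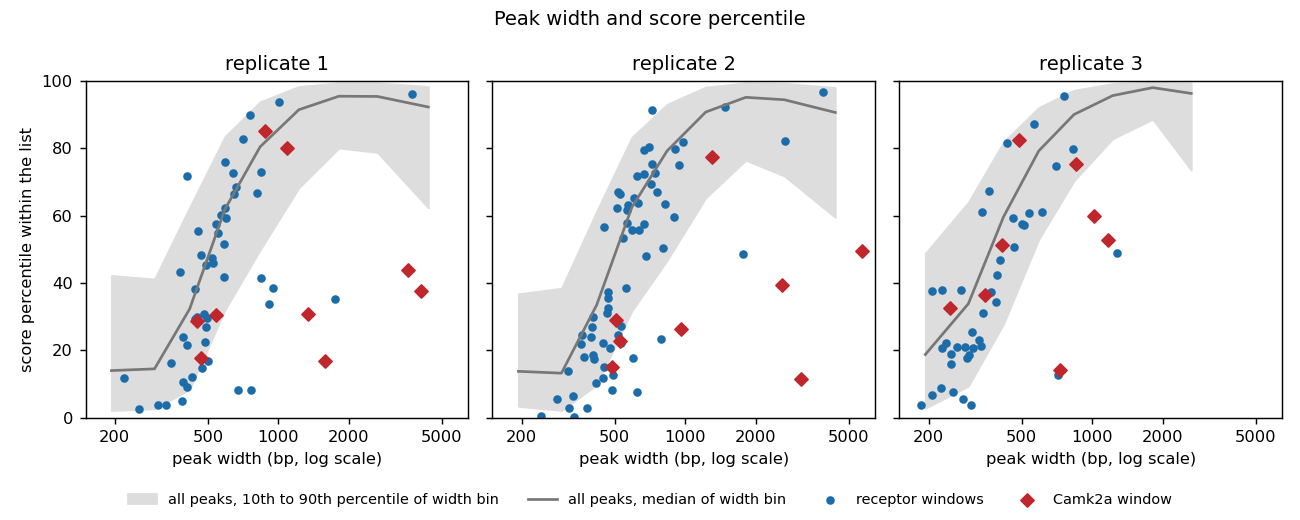
Width of each peak in bp, on a log axis, against its score percentile, with 1 panel per replicate, red diamonds for Camk2a and blue points for the 5 receptor windows. The grey line and band give the median and the 10th to 90th percentile of all peaks in bins of width, and most of the Camk2a peaks of 1 kb or wider lie below the band, such as those at 37.5 and 43.7 in replicate 1.

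The receptor windows differed in wide peaks. Gria1, Grin1 and Grin2b had 0 peaks of 1 kb or wider in any animal, and Grin2a had 1, the replicate 2 peak described above. Gria2 had 3, 3 and 1, or 21.4%, 33.3% and 11.1% of its peaks, also above the shares of the lists. Its wide peaks had a median percentile of 93.8 in replicate 1 and 92.3 in replicate 2, but both sets included a weak one, at 35.3 and 48.6. The single wide Gria2 peak of replicate 3 was at 49.0, below the Camk2a median of 56.2 in that list.

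Across the 30 shared member regions, the Spearman correlation of percentiles was 0.88 between replicates 1 and 2, 0.64 between 1 and 3, and 0.67 between 2 and 3. Over all shared regions of the series these were 0.88, 0.79 and 0.78. The regions of a window share their neighbourhood and each list its depth, so these values are descriptions. Replicate 3 had the lowest percentile in 19 of the 30 regions (63.3%) and the narrowest peak in 28 (93.3%), near the 58.7% and 90.01% of all 36824 shared regions. In 12 of the 30 (40.0%), all 3 animals were at 50 or higher, against 54.9% over the series.

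**Figure D4:**
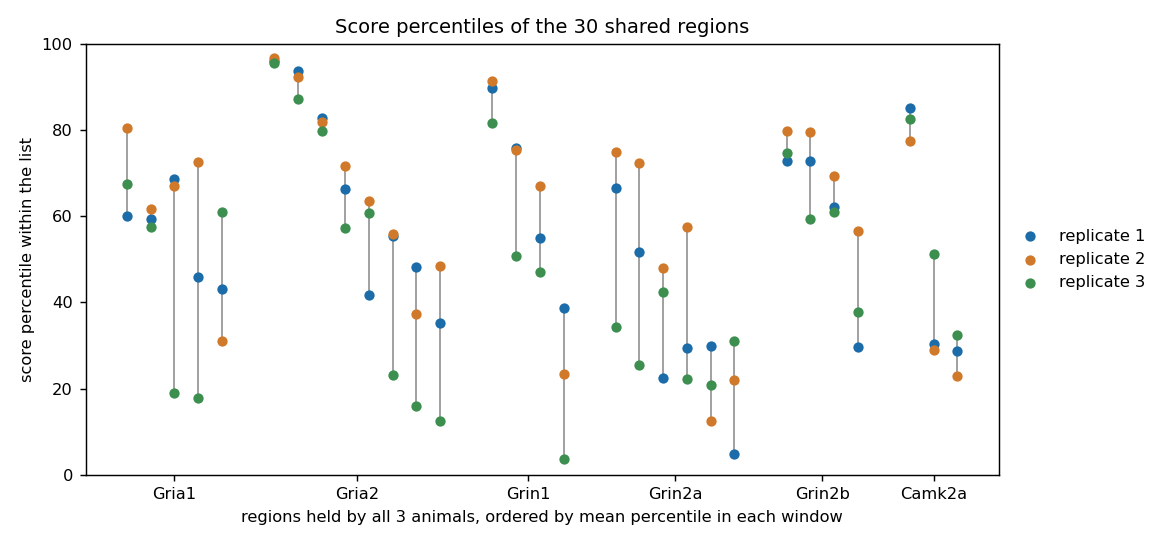
Score percentile of each of the 30 regions held by all 3 animals, grouped by window and ordered by mean percentile, with 1 point per animal and a line over their range. The leading Gria2 regions have short lines, at 95.7 to 96.7 for the first, while several Gria1 and Grin2a regions have long ones with replicate 3 at the foot. Lower-ranked Gria2 regions also have long lines with replicate 3 at the foot, such as the one from 12.5 to 48.6.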

How the data were processed

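ATAC-seq was done on the dentate gyrus of 3 mice of 1 group, with 1 library from each animal, per the labels' protocols. Reads were aligned with Bowtie2 to mm9, per the submitters' processing notes, and the peak names in the deposited files are those of MACS. No version, setting, read filter or Tn5 shift is given in the sources used here. The deposited value of each peak is a score without unit, with a lowest value of 50.0 in each list. Since such a score can move with depth, it was used for ranks within a list.

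A peak belonged to a window where it overlapped it by 1 bp, and peaks of the 3 lists were joined into regions at 1 bp overlap. Relative density was peaks per kb in a window divided by peaks per kb over chromosomes 1 to 19, from the first to the last peak of each. In each window were named the 3 shared regions with the highest mean percentile, the widest region, the highest region of 1 or 2 animals and the longest stretch without a peak. Any further region was picked with its values known. Genes, windows and lists were chosen with earlier results of these data known. Alternatives were peak midpoints, windows moved by 20 kb (10 kb where the shortest was narrowed), the highest-scoring 50% of each list, equal list lengths, 50% reciprocal overlap, other reference densities and leaving out each replicate. The functions were tested on simulated lists. The software was Python 3.11.15, with scipy 1.17.1 for statistics, pandas 2.3.3 and numpy 2.4.6 for tables, and matplotlib 3.10.9 for plots. The number of animals limits the precision, and positions are counted from 1.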

Additional observations from a re-analysis of the deposited data

How the results depend on the processing

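Of 171 alternative values for 22 results, 146 stayed within the spread between animals, the binomial interval of the share, or 1.5 times a count. Leaving out 1 of 3 animals cannot move a mean by 1 SD. For densities and percentiles those values therefore stayed by construction, and the 146 include them. The binomial interval treats regions as independent, which neighbouring regions are not, and it is not a spread between animals. In the highest-scoring 50% of each list, the relative density was 1.09 for the 6 windows together and 2.16 ± 2.03 for Camk2a (SD, n = 3), where replicate 2 stood at 0.632 and the mean without replicate 3 was 1.01. Grin1 and Gria2 then stood higher, at 2.76 and 2.50. It went below 1 for Gria1, at 0.951, and for Grin2a, at 0.508. Regions held by all 3 animals then numbered 12 in all, with 2 for Gria1, 4 for Gria2, 2 for Grin1, 0 for Grin2a and 1 for Camk2a. A shorter list lowers such counts by construction. With equal list lengths the density was 1.30 for the windows together and 1.11 for Gria1, and 3 Grin2a regions and 1 Camk2a region were shared. Against chromosome 18 alone, an alternative chosen after seeing the data, Camk2a stood at 2.30 and Grin1, against its own, at 2.72. Narrowed windows gave Camk2a a density of 2.51 and 0 shared regions, with Grin1 at 2.53 and Gria2 at 2.51. Camk2a thus led over all peaks but not under these 3 settings. The causes of the density changes were not tested.

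Leaving out 1 replicate leaves fewer animals to match, which mostly raises sharing by construction. For Grin1 it gave 3 without replicate 1, against 4, since the peaks of replicates 2 and 3 in 1 region met only through that of replicate 1. Shared regions then numbered 33 to 47 in all, with a share of 37.1% to 54.7%, and the highest values were those without replicate 3. By window they numbered 5 to 11 for Gria1, 6 to 10 for Grin2a, 4 to 8 for Grin2b and 3 to 6 for Camk2a. The Camk2a count was 6 without replicate 2 and 6 without replicate 3. Widths of 750 or 1500 bp in place of 1 kb, also chosen after seeing the data, left the Camk2a percentile within its spread, and replicate 3 had 0 peaks of 1500 bp. With depth unknown, the lack of a peak does not show closed chromatin. Groups of animals could not be compared because all samples belong to 1 group, so windows were compared within animals.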
